A study of Mus musculus with 75 samples.

Results

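10 genes of hepatic methionine metabolism were followed by gene symbol through every group of a mouse liver RNA-seq series: Mat1a, Mat2a, Gnmt, Bhmt, Ahcy, Cbs, Cth, Pemt, Nnmt and Mthfd2. They are 10 of 55536 genes in the deposited count table. The list was named by function, without a threshold on any value, but with earlier results of these data known. All samples are labelled as livers of wild-type C57Bl/6 males. Their dams drank either vehicle or water containing tributyltin (TBT), an organotin pollutant, up to weaning. TBT was at 3.07 µM, given in the labels as 0.5 mg/kg/day. Livers were taken at 3 weeks, 5 months or 10 months. The 3-week groups were vehicle (7 samples) and TBT (8 samples). The 5-month groups were vehicle (8), TBT labelled low-risk for liver tumors (16) and TBT labelled high-risk (10). The 10-month groups were vehicle (6), low-risk TBT (5), tumor-free tissue of high-risk TBT livers, called uninvolved (5), and tumors of high-risk TBT livers (7). A further 10-month vehicle library is labelled tumor and entered no group. How risk was assigned at 5 months, and whether expression played a part in it, is not given in the sources used here.

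The methionine cycle makes S-adenosylmethionine (SAM), the methyl donor of most cellular methylation, and recovers methionine from the homocysteine that is left. Methionine adenosyltransferases make SAM, methyltransferases such as GNMT, PEMT and NNMT spend it, AHCY hydrolyses the S-adenosylhomocysteine they release, and BHMT remethylates homocysteine with betaine. Homocysteine can instead leave the cycle through CBS and CTH toward cysteine. The liver is the main site of this cycle, adult hepatocytes use MAT1A where most other tissues use MAT2A, and MTHFD2 supplies one-carbon units in mitochondria mainly in growing or transformed cells.

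Gnmt, Bhmt and Ahcy were called lower in 5-month high-risk livers against both low-risk and vehicle livers, and their start-site-proximal sequence is shown. That of Mthfd2 is shown because it was higher than in low-risk livers. Windows came from RefSeq on GRCm38.p6, which held one or more entries for 7 of the 10 members, and the 250 bases before the start are printed 5′ to 3′ on the gene's strand. All 4 genes lie on the minus strand, at chr17:46729166-46729415 for Gnmt, chr13:93637759-93638008 for Bhmt, chr2:155074498-155074747 for Ahcy and chr6:83317605-83317854 for Mthfd2. Capitals mark AGGTCA, the half-site of nuclear receptors, or its reverse complement TGACCT.
Gnmt: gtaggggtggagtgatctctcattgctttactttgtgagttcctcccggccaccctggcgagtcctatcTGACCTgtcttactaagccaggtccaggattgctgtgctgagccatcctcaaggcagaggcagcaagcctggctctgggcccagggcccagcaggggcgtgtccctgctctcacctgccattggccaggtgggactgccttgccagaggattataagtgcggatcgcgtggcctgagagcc
Bhmt: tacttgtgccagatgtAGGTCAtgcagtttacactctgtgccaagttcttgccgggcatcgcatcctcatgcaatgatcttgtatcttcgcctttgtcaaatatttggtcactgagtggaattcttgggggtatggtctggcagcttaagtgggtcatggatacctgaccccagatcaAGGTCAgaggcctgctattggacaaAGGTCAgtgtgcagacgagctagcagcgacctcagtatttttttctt
Ahcy: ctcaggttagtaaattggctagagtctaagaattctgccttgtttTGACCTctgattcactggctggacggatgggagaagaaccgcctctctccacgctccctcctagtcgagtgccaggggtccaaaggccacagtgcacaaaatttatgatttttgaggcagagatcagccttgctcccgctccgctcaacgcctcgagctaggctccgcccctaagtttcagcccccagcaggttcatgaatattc
Mthfd2: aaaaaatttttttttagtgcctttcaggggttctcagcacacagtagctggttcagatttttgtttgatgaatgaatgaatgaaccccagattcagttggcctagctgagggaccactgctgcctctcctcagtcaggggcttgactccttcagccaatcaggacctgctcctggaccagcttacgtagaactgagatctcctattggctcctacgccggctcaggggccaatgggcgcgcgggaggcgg
The half-site began 181 bases before the start of Gnmt, 205 bases before that of Ahcy, and 234, 72 and 47 bases before that of Bhmt. Pemt, also called lower than in low-risk livers, had 2 windows, not printed here, and neither held the half-site. It was found in 16.3% of 32851 promoter windows of 300 bases (250 before and 50 after the start), so such a match is common. AGGTCA was picked after these windows had been read, and the matches are a description only. The other motifs searched on both strands were TGATGNAA (ATF4 and C/EBP composite, in 3.97% of windows), TGACNNNGC (antioxidant response element core, 12.4%), CACGTG (E-box, 7.15%) and CAAAGTCCA (HNF4A, 0.475%). Of these 4, only the E-box matched a member, 229 bases before the start of Cbs.

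Libraries held 2.83 to 45.4 M counts (median 18.07 M), and the number of counts limits precision mainly for Mthfd2, which had 4 to 276 counts per sample. 6 libraries stood apart by total counts, genes detected or mitochondrial share, among them 5-month vehicle 9, which had the smallest total and the lowest level of all 10 members among the 5-month vehicles. The library labelled 3-week TBT 4 carried Xist at 348 CPM (counts per M, mega, counts) and 4 Y-linked genes at 7.08 CPM in sum, against its male label. Xist in 5-month low-risk 24 was at 84.6 CPM, beside 237 CPM of these Y-linked genes. Libraries 3 and 6 of uninvolved liver were nearly the same and were counted as 1 sample, called 3+6. Uninvolved libraries held 34.8 to 44.6 M counts, against at most 33.5 M in the other compared 10-month libraries. They also had more genes detected (24676 to 28715, against at most 23868) and a larger mitochondrial share (4.202% to 5.845%, against at most 3.834%). The part of these differences in the comparisons of uninvolved liver was not tested. Mouse 7 stood apart among both uninvolved livers and tumors. Leaving out TBT 4 or low-risk 24 changed no count of members called. The number of dams behind each group is not given in the sources used here. Of the 6 hepatocyte markers 5 were in the table, and their summed level was between 37778 and 193808 CPM in the compared samples, so hepatocyte transcripts were abundant throughout. The labels number the samples of a group, and the p-values measure the spread between these samples.

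In high-risk livers of 5 months, 4 of the 10 genes fell and 2 rose against low-risk livers. Ahcy, Bhmt, Gnmt and Pemt were lower by 0.69 to 1.03 on the log2 scale, whereas Mthfd2 was 3.16-fold and Cth 1.44-fold higher. These calls used edgeR's quasi-likelihood test with Benjamini-Hochberg adjusted p under 0.05 over all genes tested. The background was high, with 38.9% of 14773 genes called (20.3% higher and 18.5% lower), so 6 of 10 is above the share of all genes but not by a wide margin. Against the vehicles of that age, which shared a fit with both exposed groups, 3 members fell (Gnmt, Bhmt and Ahcy) and 0 rose, with 15.8% of genes called (8.47% higher and 7.38% lower). At 10 months uninvolved liver differed from low-risk liver in 1 member, Pemt, which was lower, against 52.4% of 16338 genes (27.7% higher and 24.7% lower), a smaller share than the background. It differed from vehicle in 4 members, all lower, against 57.7% (31.2% higher and 26.5% lower). The total is again below the background, but 4 of 10 lower is above the share of genes called lower. The members were chosen with earlier results of these data known, so the shares in this paragraph are a description only. Tumors differed from vehicle in 6 members, 2 higher and 4 lower, against 45.9% of 15293 genes (24.8% higher and 21% lower), and from uninvolved liver in 0 members, against 18.1% of 16362 (7.55% higher and 10.5% lower). TBT against vehicle at 3 weeks, and low-risk TBT against vehicle at 5 and at 10 months, gave 0 members and 0% of genes. For these 3 comparisons 474, 934 and 688 genes had an unadjusted p under 0.05 and DESeq2 called 2, 52 and 1 genes, none of them a member. Counting the vehicle library labelled tumor as a vehicle ended the calls of Gnmt (-0.25, adjusted p = 0.345) and Ahcy (-0.43, 0.199) in uninvolved liver, and those of Gnmt (-0.59, 0.081), Bhmt (-0.75, 0.0775), Ahcy (-0.65, 0.127) and Pemt (-0.45, 0.0799) in tumors, against vehicle. All 10 members passed the filter on low counts in each comparison. Comparisons with a common vehicle or low-risk group share those samples, so their values below stand side by side and are not separate support for each other.

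**Figure D1:**
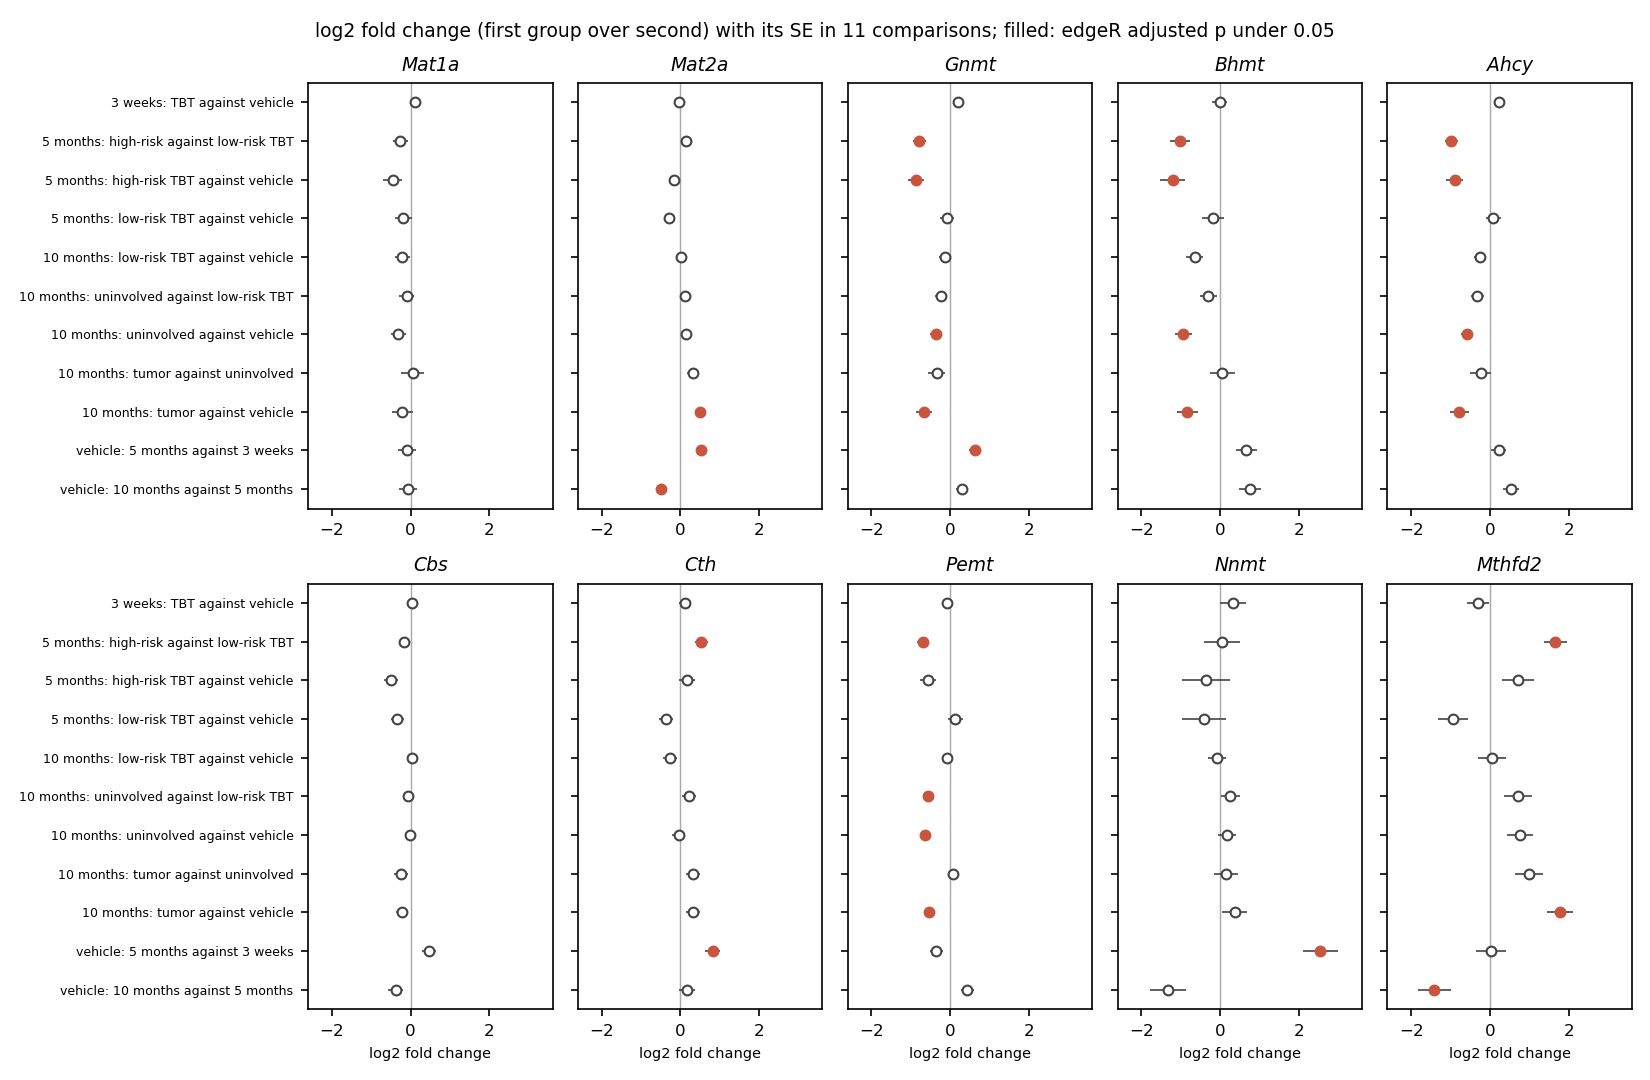
Log2 fold changes of the 10 members in the 11 comparisons of 2 groups, with filled points for adjusted p under 0.05 and bars for the standard error. In 5-month high-risk against low-risk livers the points run from -1.03 for Bhmt to 1.66 for Mthfd2, and no point is filled in the 3 comparisons of 3-week TBT or low-risk TBT with vehicle.

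The synthesis step was carried by Mat1a (ENSMUSG00000037798, GRCm38 chr14:41105035-41124412, plus strand), which encodes the hepatocyte enzyme. Mat1a was the most abundant member per length, with group means between 950.3 and 1416 CPM per kb of exon, whereas Mat2a (ENSMUSG00000053907, chr6:72432799-72439558, minus strand) had between 12.03 and 18.3 CPM per kb. In the 9 groups the lowest Mat1a mean was 3296 ± 1292 CPM (SD, n = 10) in 5-month high-risk livers and the highest was 4911 ± 701 CPM (SD, n = 8) in 3-week TBT livers. All 8 pairs of neighbours in that order lay closer together than the larger of their SDs. Mat1a was called in 0 of the 11 comparisons. High-risk against low-risk livers of 5 months gave a log2 fold change of -0.27 with a 95% interval from -0.65 to 0.12. In tumors Mat1a was 7750 CPM in mouse 7 and at most 3551 CPM in the other 6, against 3025 to 5672 CPM in vehicles. Without tumor 7 it was called lower in tumors than in vehicles (-0.51, edgeR adjusted p = 0.0165), and without uninvolved sample 7 also lower in uninvolved liver than in vehicle (-0.52, adjusted p = 0.0152).

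Mat2a, the form of non-hepatic and dividing cells, rose in tumors against vehicle. Vehicles had 51.36 to 66.42 CPM (median 54.66) and tumors 59.37 to 104.3 CPM (median 77.83). 6 of the 7 tumors lay above all 6 vehicles and tumor 7 among them, and the log2 fold change was 0.50 ± 0.12 (SE, edgeR adjusted p = 0.00398). Uninvolved livers had 52.23, 61.93, 67.2, 69.54 and 81.91 CPM. The tumor of each of the 6 mice with both tissues had more Mat2a than its uninvolved liver, by 0.05 to 0.87 on the log2 scale. The uninvolved libraries of mice 3 and 6 are near copies of each other, so these are not 6 separate pairs. That comparison was not called, with 0.32 (95% interval 0.02 to 0.61, edgeR adjusted p = 0.118), while a fit of all 10-month groups called it (0.37, adjusted p = 0.0217). Between high-risk and low-risk livers of 5 months the Mat2a difference was 0.13 (interval -0.08 to 0.35). Mat2a also moved with age in vehicles, where it rose from 3 weeks to 5 months (0.52, adjusted p = 0.0034) and fell from 5 to 10 months (-0.50, adjusted p = 0.0131).

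The ratio of Mat2a to Mat1a, taken per exon length within each sample, removes library scaling from both. Its log2 value had a mean of -6.36 ± 0.37 (SD, n = 16) in low-risk and -5.95 ± 0.47 (SD, n = 10) in high-risk livers of 5 months, so that Mat1a remained far above Mat2a in both. The difference was 0.42, and 9 of 10 high-risk livers lay above the low-risk mean (permutation test, two-sided, p = 0.0217, 0.12 adjusted over 11 comparisons). Within batch 1 the difference was 0.31 (exact permutation test, p = 0.405) and within batch 2 it was 0.49 (permutation test, p = 0.0182). Tumors were 0.78 above vehicles, with 6 of 7 tumors above all vehicles and tumor 7 below all vehicles (exact permutation test, p = 0.0536, adjusted 0.197). The smallest p was that of 5-month against 3-week vehicles, with a difference of 0.66 (exact permutation test, p = 0.00641, adjusted 0.0705). No comparison of the ratio passed after adjustment.

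**Figure D2:**
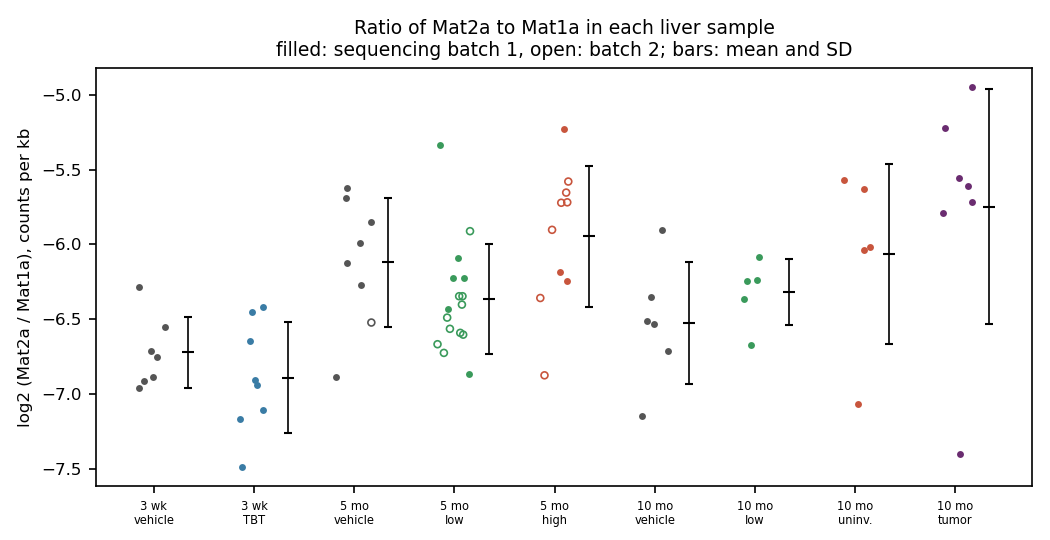
Log2 ratio of Mat2a to Mat1a counts per exon length in each sample of the 9 groups, filled for batch 1 and open for batch 2, with bars for mean and SD. All samples are below 0, and tumor 7 is the lowest tumor at -7.40.

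Gnmt and Ahcy stand at the use of SAM and at the removal of its product. Gnmt (ENSMUSG00000002769, chr17:46725664-46729168, minus strand) encodes glycine N-methyltransferase, an abundant liver enzyme that disposes of excess SAM. Its level was 591.1 to 1970 CPM (median 1299) in low-risk and 402.5 to 1086 CPM (median 704.8) in high-risk livers of 5 months. Every high-risk sample was below the low-risk mean of 1251 CPM, although the groups overlapped and low-risk 16 was the lowest of its group. The log2 fold change was -0.79 ± 0.16 (SE, edgeR adjusted p = 0.000253). Against vehicle, where 7 samples had 1083 to 1683 CPM and vehicle 9 had 398.6, it was -0.87 ± 0.21 (SE, adjusted p = 0.00431). At 10 months vehicles had 1186 to 1901 CPM (median 1547) and uninvolved livers 947, 1257, 1288, 1344 and 1438 CPM. That fall of 0.37 had an adjusted p of 0.0362 and was lost without uninvolved sample 1 (-0.26, adjusted p = 0.132), 5 (-0.38, 0.053) or 3+6 (-0.35, 0.0641). Tumors had 637.7 to 1617 CPM (median 1009), and 6 of 7 lay below all vehicles (-0.67 ± 0.20, SE, adjusted p = 0.0112).

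Ahcy (ENSMUSG00000027597, chr2:155059310-155074497, minus strand) had the smallest p of any member in high-risk against low-risk livers. Low-risk livers had 602.3 to 1583 CPM (median 1435), of which 15 of 16 were at or above 1188 CPM, and high-risk livers had 361.1 to 1170 CPM (median 642.9). Only low-risk 16, one of the libraries that stood apart, reached into the high-risk range. The log2 fold change was -0.98 ± 0.17 (SE, edgeR adjusted p = 2.29e-05), and -0.90 ± 0.21 (SE, adjusted p = 0.0041) against vehicle. In uninvolved livers Ahcy was 852.6, 1040, 1165, 1411 and 1488 CPM against 1418 to 2249 CPM (median 1582) in vehicles, a fall of 0.58 on the log2 scale (adjusted p = 0.00403). Tumors had 613.8 to 1931 CPM (median 886), where tumor 7 was the highest and the other 6 lay below all vehicles (-0.77, adjusted p = 0.0149). Over the 9 group means the profiles of Gnmt and Ahcy were the most alike of all pairs of members, with a root-mean-square difference of 0.15 on the centred log2 scale. As 77% of the 50-base stretches of Ahcy's longest transcript also occur in other genes, reads could be split between copies. The copy Gm9826 was counted at 0.212% of Ahcy's level in uninvolved liver and at 0.361% to 0.481% in the other groups. Adding the copies' counts to Mat2a, Bhmt and Ahcy left the number of members called the same in every comparison.

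Bhmt (ENSMUSG00000074768, chr13:93616675-93637961, minus strand), the betaine-dependent remethylation enzyme, had the largest fall of the members in high-risk livers. Low-risk livers of 5 months had 1890 to 4379 CPM (median 2835) and high-risk livers 548.7 to 3596 CPM (median 1184). 8 of the 10 high-risk samples lay below all low-risk samples, and the other 2, high-risk 1 (3137 CPM) and 22 (3596 CPM), lay above the low-risk mean. The log2 fold change was -1.03 ± 0.26 (SE, edgeR adjusted p = 0.00164). Against vehicle it was -1.21 ± 0.32 (SE, adjusted p = 0.00926), and 5-month vehicles spread from 432 to 4762 CPM with vehicles 9, 6 and 4 lowest. At 10 months vehicles had 3868 to 7134 CPM (median 5047). Low-risk livers had 2375, 3179, 3626, 3658 and 3697 CPM, all below all vehicles, yet that difference was not called (-0.64, 95% interval -1.09 to -0.20, unadjusted p = 0.00707, edgeR adjusted p = 1). Uninvolved livers had 2044, 2146, 2456, 2754 and 4499 CPM, and the fall from vehicle was called (-0.94 ± 0.21, SE, adjusted p = 0.00125). The high value was mouse 7. Without that sample 4 members rather than 1 were called between uninvolved and low-risk liver, with Bhmt (-0.54, adjusted p = 0.0248) and Ahcy (-0.41, 0.0437) lower and Mthfd2 higher (0.90, 0.0304) beside Pemt. In that setting 8050 genes rather than 8561 were called in all. Against vehicle 6 members rather than 4 were then called, with Mat1a and Mthfd2 added, beside 9001 genes rather than 9427. Tumors had 1792 to 6127 CPM (median 2616), and 6 of 7 lay below all vehicles (-0.84, adjusted p = 0.0207, and 0.0654 without a filter on low counts). Bhmt shares 59.6% of its 50-base stretches with other genes, among them Gm5096. That copy was counted at 0.442% of Bhmt's mean in uninvolved liver and at 0.896% to 1.25% in the other groups.

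**Figure D3:**
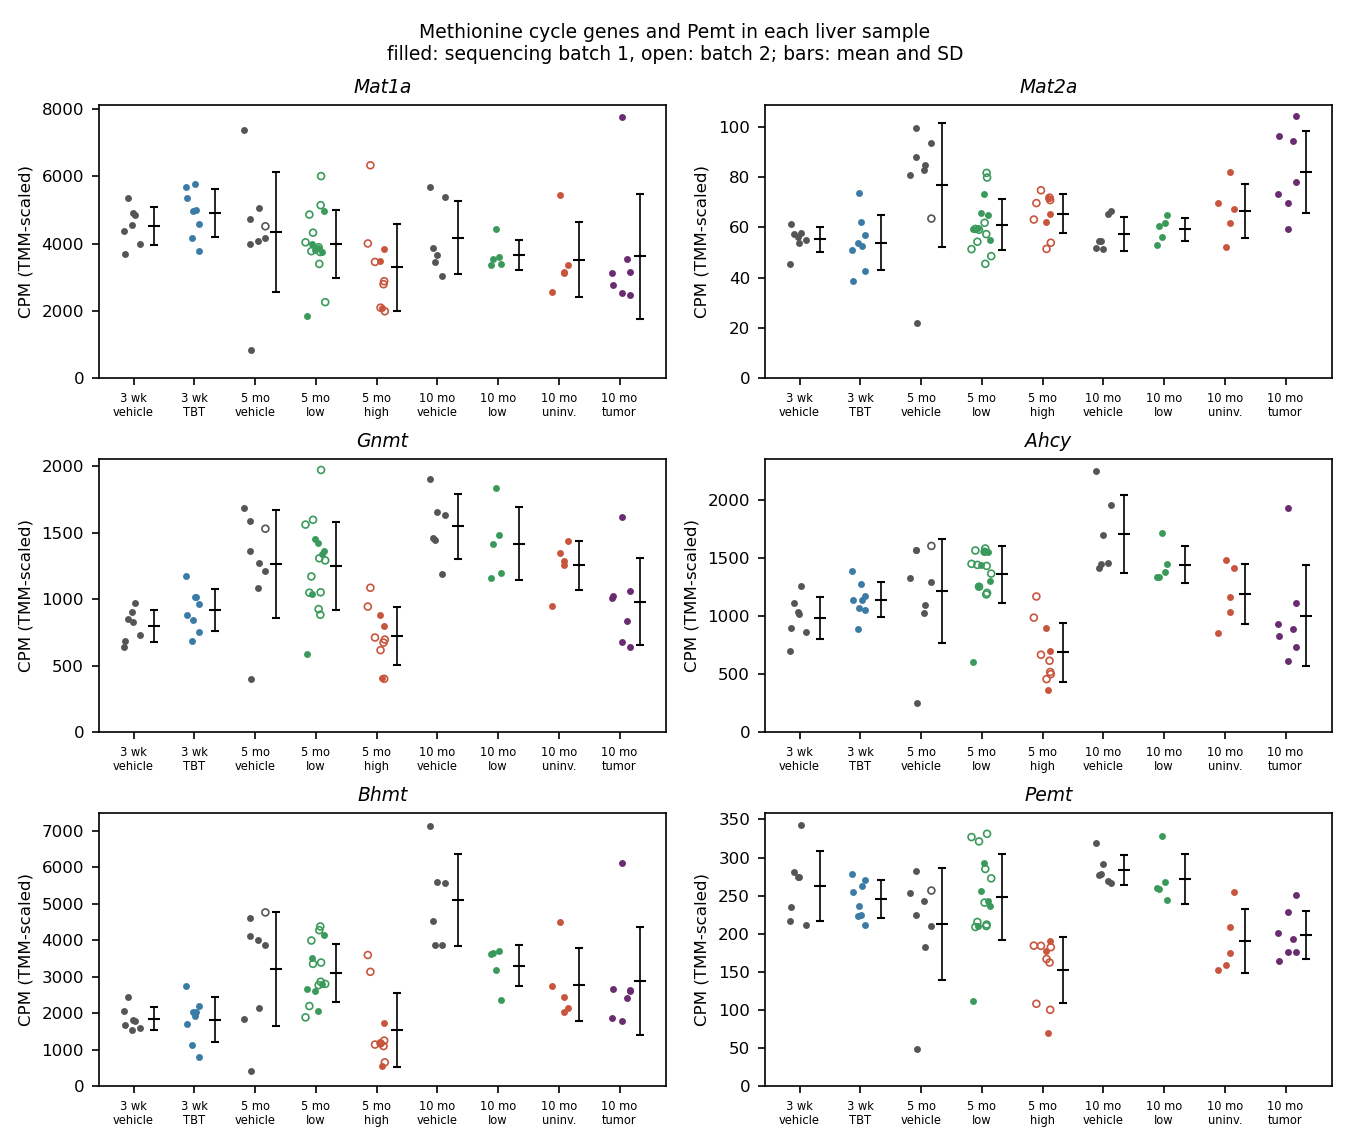
Level in CPM of the cycle enzymes Mat1a, Mat2a, Gnmt, Bhmt and Ahcy, and of Pemt, in each sample of the 9 groups, with the group mean and SD. High-risk livers of 5 months have the lowest mean for Mat1a (3296 CPM), Gnmt (722.4), Bhmt (1554), Ahcy (688.8) and Pemt (152.8), and tumors the highest for Mat2a (82.11).

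Pemt (ENSMUSG00000000301, chr11:59970614-60046489, minus strand), which methylates phosphatidylethanolamine to phosphatidylcholine and uses much of the liver's SAM, was called lower in high-risk than in low-risk livers of 5 months, and in uninvolved liver and tumors than in vehicle. Low-risk livers of 5 months had 111.6 to 331.2 CPM (median 241.9) and high-risk livers 69.73 to 190.8 CPM (median 172.2). Only low-risk 16 lay within the high-risk range, and the log2 fold change was -0.69 ± 0.16 (SE, edgeR adjusted p = 0.000835). Against vehicle the difference was -0.56 (95% interval -0.97 to -0.15, adjusted p = 0.0519), just outside the threshold. Without the libraries that stood apart it passed (-0.53, adjusted p = 0.0188). At 10 months vehicles had 266.4 to 319.5 CPM (median 278.2), low-risk livers 244.2, 258.5, 260.6, 268.5 and 328.7 CPM, and uninvolved livers 153.2, 159.7, 174.5, 209.4 and 255.1 CPM. All 5 uninvolved livers lay below all vehicles (-0.65 ± 0.12, SE, adjusted p = 0.000222), and 4 of 5 below all low-risk livers (-0.57 ± 0.12, SE, adjusted p = 0.00121). Tumors had 164.3 to 250.6 CPM (median 192.9), again all below all vehicles (-0.53 ± 0.10, SE, adjusted p = 0.000715). Tumor and uninvolved tissue did not differ beyond their spread (0.08, interval -0.23 to 0.39).

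Nnmt (ENSMUSG00000032271, chr9:48591877-48605153, minus strand) methylates nicotinamide and varied widely among samples of a group, with a coefficient of variation from 22.6% to 109% over the 9 groups. In 5-month low-risk livers it ran from 31.16 to 486.8 CPM (median 63.22), with samples 24, 5 and 3 above 300 CPM, and in high-risk livers from 59.52 to 229.6 CPM (median 103.2). The log2 fold change was 0.04 with an interval from -0.90 to 0.98. Vehicles of 5 months ran from 9.47 to 542.2 CPM (median 159.2). Tumors (51.17 to 231 CPM, median 110.8), uninvolved livers (72.93, 102.2, 113.5, 130.4 and 135.4 CPM) and vehicles of 10 months (64.77 to 139.5 CPM, median 90.7) overlapped. Age was where Nnmt was called. It rose from 20.73 to 52.48 CPM (median 39.83) in 3-week vehicles to the 5-month range, by 2.54 ± 0.45 on the log2 scale (SE, edgeR adjusted p = 0.000302), in 6 of 7 samples.

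Of the transsulfuration enzymes, Cbs (ENSMUSG00000024039, chr17:31608894-31637238, minus strand), which condenses homocysteine with serine, was called in 0 of the 11 comparisons. Low-risk livers of 5 months had 364.5 to 683.7 CPM (median 485.6), high-risk livers 279.9 to 586.2 CPM (median 461.6) and vehicles 132.1 to 915.8 CPM (median 680.2). High-risk against low-risk gave -0.16 (95% interval -0.44 to 0.13) and high-risk against vehicle -0.50 (interval -0.87 to -0.12, edgeR adjusted p = 0.0644). The latter passed without the libraries that stood apart (-0.49, adjusted p = 0.0317). Tumors had 338.2 to 611.1 CPM (median 389), and Cbs was called lower than in vehicle only when tumor 7 was left out (-0.32, adjusted p = 0.0386).

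Cth (ENSMUSG00000028179, chr3:157894248-157925077, minus strand) splits cystathionine to cysteine and rose in high-risk livers. Low-risk livers had 207.1 to 460.3 CPM (median 305.5) and high-risk livers 338.2 to 571.7 CPM (median 407.6), and all 10 high-risk samples were above the low-risk mean of 312 CPM. The log2 fold change was 0.53 ± 0.16 (SE, edgeR adjusted p = 0.00721). Vehicles of that age ranged from 130.6 to 649.4 CPM (median 355.7), and high-risk against vehicle was not called (0.17, 95% interval -0.25 to 0.58). At 10 months the tumor of all 6 paired mice had more Cth than its uninvolved liver, by 0.08 to 0.69 on the log2 scale. Again the pairs of mice 3 and 6 are not separate, as their uninvolved libraries are near copies. The group difference was 0.32 (interval -0.07 to 0.72, edgeR adjusted p = 0.231). In vehicles Cth rose from 3 weeks to 5 months, by 0.82 ± 0.20 (SE, adjusted p = 0.0037).

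Mthfd2 (ENSMUSG00000005667, chr6:83305691-83325908, minus strand), a mitochondrial folate enzyme, was the scarcest member and had the largest rise of the members in high-risk against low-risk livers of 5 months and in tumors against vehicle. Low-risk livers of 5 months had 0.5321 to 3.138 CPM (median 1.751) and high-risk livers 2.903 to 7.905 CPM (median 5.3). 9 of the 10 high-risk samples lay above all low-risk samples. The log2 fold change was 1.66 ± 0.30 (SE, edgeR adjusted p = 4.23e-05). Vehicles of 5 months were spread, with 6 samples from 0.8609 to 3.636 CPM and vehicles 6 (6.983) and 4 (9.032) among or above the high-risk livers, and high-risk against vehicle was not called (0.71, 95% interval -0.10 to 1.52). At 10 months vehicles had 0.6333 to 2.556 CPM (median 1.3) and low-risk livers 1.186, 1.386, 1.549, 1.559 and 1.908 CPM. Uninvolved livers had 1.146, 2.101, 2.131, 2.228 and 5.222 CPM, of which the last was the sum of libraries 3 and 6, and the difference from vehicle was 0.76 (interval 0.06 to 1.46, adjusted p = 0.0597). Without sample 7, the lowest of the 5, it was called (0.94, adjusted p = 0.0175). Tumors had 2.052 to 8.179 CPM (median 5.314), 6 of 7 above all vehicles, with a log2 fold change of 1.77 ± 0.33 (SE, adjusted p = 0.000548).

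**Figure D4:**
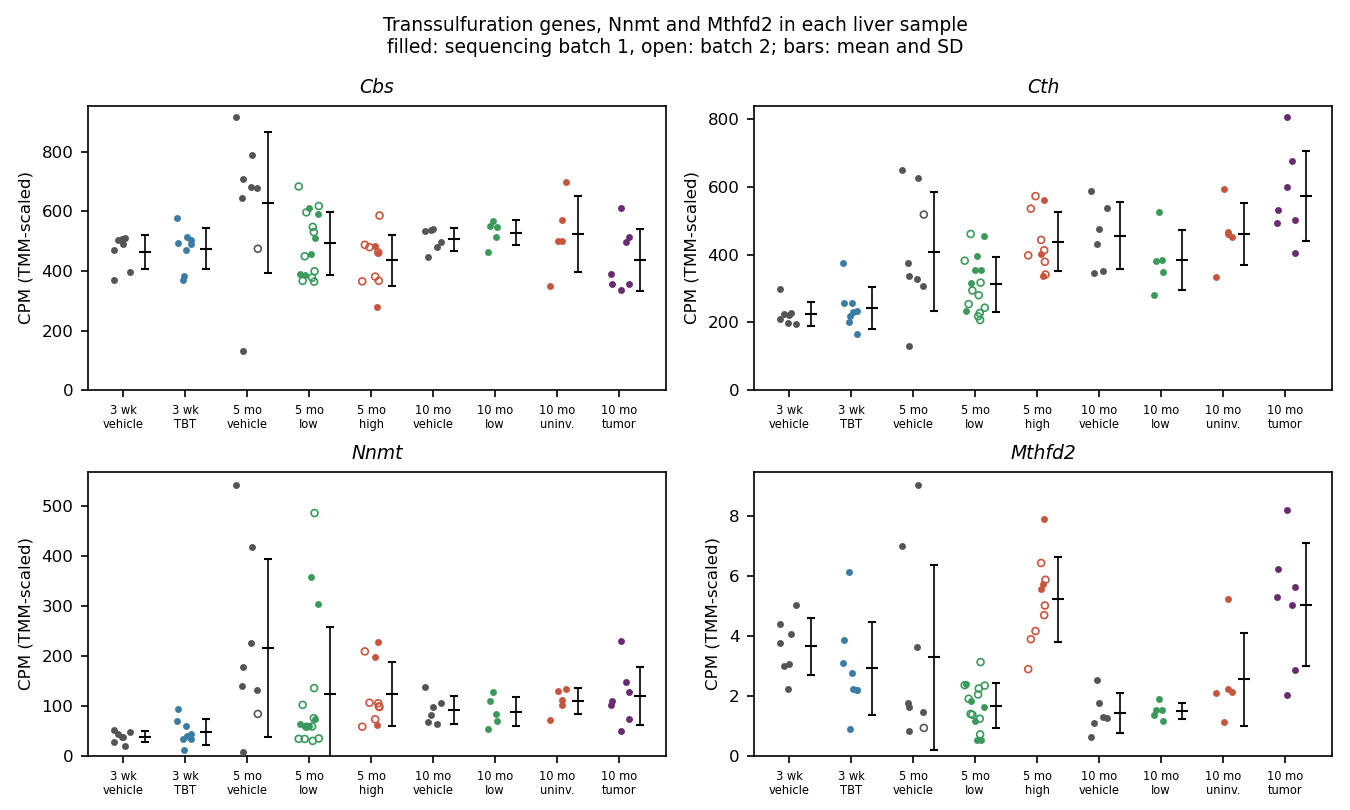
Level in CPM of Cbs, Cth, Nnmt and Mthfd2 in each sample of the 9 groups, with the group mean and SD. The lower bar of Nnmt in 5-month low-risk livers is drawn only down to 0. Mthfd2 is highest in 5-month high-risk livers (mean 5.22 CPM) and tumors (5.045).

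Markers of other cells differed between the same groups, not all in the same direction. In high-risk against low-risk livers of 5 months, 4 of 5 biliary, 5 of 6 proliferation and 5 of 7 stellate and fibroblast markers were called higher, 1 of 7 of the latter lower, and 2 of 5 hepatocyte markers lower, where 20.3% of all genes were called higher and 18.5% lower. The biliary markers summed to 32.76 to 342.4 CPM among high-risk samples against 25.81 to 220.5 CPM among low-risk ones, the proliferation markers 47.16 to 265.4 against 23.55 to 64.26 CPM, and the stellate and fibroblast markers 539.7 to 1513 against 315.2 to 673.7 CPM. The hepatocyte markers summed to 62618 to 169189 CPM among high-risk and 75209 to 171875 CPM among low-risk samples, and no marker of these 4 lists was at 0 throughout a group. Of further lists at 5 months, endothelial markers had 1 of 5 higher and 3 lower, macrophage markers 2 of 6 and 1, and lymphocyte markers 3 of 6 and 0. At 10 months 5 of 5 biliary markers were called higher in uninvolved liver than in vehicle, and 3 of 5 hepatocyte markers lower, beside 31.2% of all genes higher and 26.5% lower. Proliferation markers had 5 of 6 higher and 1 lower there, and stellate and fibroblast markers 5 of 7 and 1. Macrophage markers had 1 of 6 higher and 3 lower there, endothelial markers 2 of 5 and 2, and lymphocyte markers 4 of 6 and 0. In tumors against vehicle, proliferation markers had 6 of 6 higher and 0 lower, biliary 5 of 5 and 0, and adipocyte 3 of 3 and 0. Stellate and fibroblast markers had 4 of 7 and 1, hepatocyte 0 of 5 and 3, and endothelial 2 of 5 and 3. Macrophage markers had 1 of 6 and 1, and lymphocyte 3 of 6 and 0, beside 24.8% of all genes higher and 21% lower. The part of these cells in the member results was not tested. In these bulk samples fewer cells of a type and less RNA per cell cannot be told apart.

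Of the 5-month livers, 10 low-risk, 7 high-risk and 1 vehicle were sequenced in batch 2, and batch was a term of the 5-month fit. By their title the counts had already been adjusted for batch by the authors, with settings not given in the sources used here. The batch term and the single-batch fits therefore rest on adjusted counts. Within batch 2 alone all 6 members were called in high-risk against low-risk livers, beside 5403 genes in all. Within batch 1 alone, with 3 high-risk and 6 low-risk livers, 1 was called, Mthfd2, beside 773 genes in all. The other 5 kept their direction there, with Gnmt at -0.79 (edgeR adjusted p = 0.183), Bhmt at -1.34 (0.113), Ahcy at -0.98 (0.148), Pemt at -0.62 (0.36) and Cth at 0.32 (0.617). High-risk against vehicle gave 0 members within batch 1, where Gnmt was -0.84 (adjusted p = 0.262), Bhmt -1.36 (0.209) and Ahcy -0.84 (0.344). Without the libraries that stood apart, 6 members were called in high-risk against low-risk livers and 5 against vehicle, beside 5735 and 2903 genes in all.

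A further contrast was the uninvolved against low-risk difference of 10 months minus the high-risk against low-risk difference of 5 months. The 10-month side is tumor-free tissue of high-risk livers, with larger libraries than the other compared 10-month groups. Age cannot be told apart from these features in the contrast. Of 16084 genes 0.448% passed (0.18% higher and 0.267% lower), and 0 members did (edgeR, 0 also by DESeq2). The closest was Ahcy, whose difference was smaller in size at 10 months by 0.66 on the log2 scale (95% interval 0.10 to 1.21, unadjusted p = 0.0216, adjusted p = 0.317), followed by Mthfd2 (-0.97, interval -1.84 to -0.09, unadjusted p = 0.0318, adjusted p = 0.364).

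Tumor and uninvolved liver of 6 mice could be set side by side, here as plain CPM of each library. Mthfd2 was higher in the tumor of mice 1, 5, 7 and 12, all but equal in mouse 3 (5.599 against 5.598 CPM) and lower in mouse 6, and Gnmt was lower in 5 of 6. Both include mice 3 and 6, whose uninvolved libraries are near copies of each other. The group difference of Mthfd2 was 0.99 ± 0.35 (SE, edgeR adjusted p = 0.066), and no member was called. Leaving out tumor 7 was decided with the data in view. Without it Mthfd2 (1.12, adjusted p = 0.0288) and Gnmt (-0.52, adjusted p = 0.0379) were called. With mouse as a block, 1920 genes rather than 2961 were called over 6 mice and 0 members, and over the 4 mice other than 3 and 6, 3037 genes and 1 member, Mthfd2 (1.29, adjusted p = 0.0167).

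**Figure D5:**
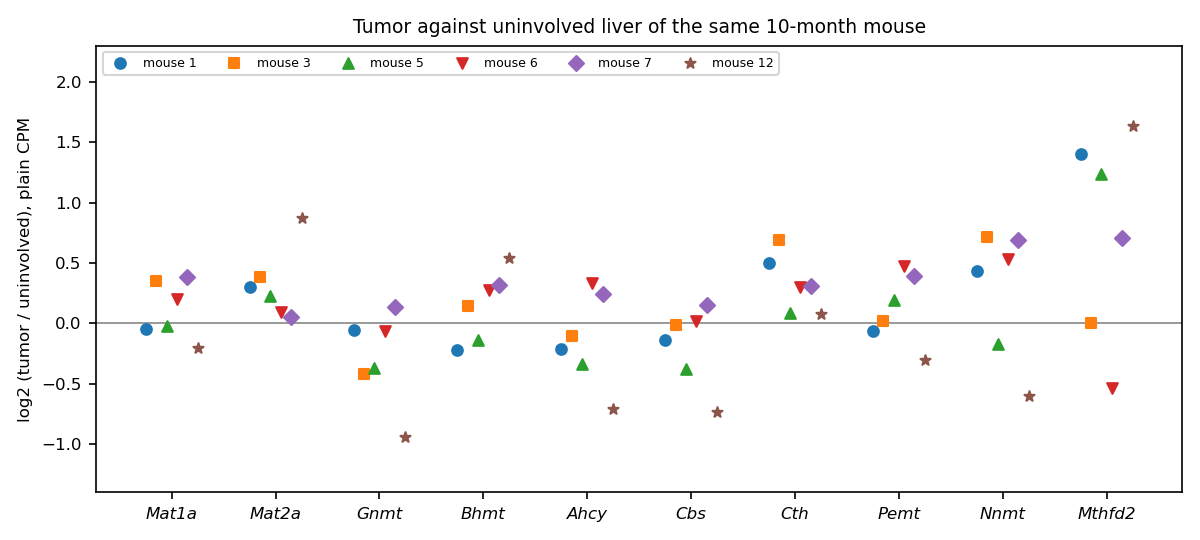
Log2 ratio of plain CPM in the tumor to that in the uninvolved liver of each of 6 mice for the 10 members, with a symbol per mouse. Mat2a and Cth are higher in the tumor of all 6 mice, and Gnmt is lower in all except mouse 7 (1629 against 1485 CPM). The uninvolved libraries of mice 3 and 6 are near copies of each other, so these are not 6 separate pairs.

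With age in vehicle livers of batch 1, 4 members rose between 3 weeks and 5 months (Mat2a, Gnmt, Cth and Nnmt), against 24.2% of 14962 genes called (11.9% higher and 12.3% lower), and 2 fell between 5 and 10 months (Mat2a and Mthfd2), against 14.1% (6.68% higher and 7.41% lower). Gnmt rose by 0.62 ± 0.15 (SE, edgeR adjusted p = 0.00397), from 640.2 to 971.2 CPM (median 825.5) at 3 weeks to between 1083 and 1683 CPM in 6 of 7 samples at 5 months. Mthfd2 fell by 1.41 (adjusted p = 0.0285), and the 5-month group was the more spread (0.8609 to 9.032 CPM). Both falls after 5 months were lost without a filter on low counts (Mat2a -0.47, adjusted p = 0.0679, and Mthfd2 -1.38, adjusted p = 0.0657). Vehicle 9 of 5 months was not left out alone. The setting without the libraries that stood apart also dropped 1 library of 3-week vehicle mouse 3, so their shares cannot be told apart. Without the libraries that stood apart 7 members were called in each, adding Bhmt (0.81, adjusted p = 0.00294), Cbs (0.58, 7.48e-05) and Pemt (-0.28, 0.0332) to the first and Bhmt (0.61, 0.0359), Ahcy (0.42, 0.0435), Cbs (-0.51, 0.00117), Pemt (0.32, 0.0273) and Nnmt (-1.52, 0.00481) to the second. The age of the mice cannot be told apart from when they were housed and sequenced.

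The other genes around the cycle were taken from 8 lists of 104 genes. The counts for high-risk against low-risk livers stand beside 20.3% of all genes called higher and 18.5% lower. In high-risk against low-risk livers of 5 months the further cycle and betaine genes had 0 of 11 higher and 4 lower, with a median log2 fold change of -0.18 against -0.01 over all genes. They included Dmgdh, which oxidises the dimethylglycine left by BHMT (248 ± 74 CPM in high-risk, SD, n = 10, and 502 ± 80 in low-risk livers, SD, n = 16, -1.001, edgeR adjusted p = 1.85e-06), and Sardh, which oxidises the sarcosine made by GNMT (-0.72, adjusted p = 0.000566). The folate list had 2 of 17 higher and 8 lower. Its mitochondrial member Mthfd1l, which acts after MTHFD2, had a mean of 10.84 ± 2.36 CPM among high-risk samples against 1.37 ± 1.10 CPM among low-risk ones, with no overlap (3.03, adjusted p = 4.7e-06), whereas Shmt1, the cytosolic serine hydroxymethyltransferase, was lower (-1.12, adjusted p = 1.54e-06).

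Serine synthesis and targets of the stress factor ATF4 had 7 of 11 higher and 1 lower, with a median of 0.46. Psat1 of serine synthesis had a mean of 8.77 ± 4.02 CPM among high-risk samples against 1.39 ± 0.73 CPM among low-risk ones, with no overlap (2.73, edgeR adjusted p = 1.87e-07). The cystine carrier Slc7a11 had 13.7 ± 10.3 and 0.199 ± 0.207 CPM (6.06, adjusted p = 7.19e-08). Its low-risk level was near 0, so the size of that fold is uncertain. In the cysteine, glutathione and taurine list 1 of 10 was higher and 3 lower, among them Tst (-0.92, adjusted p = 3.81e-05) and Cdo1, which oxidises cysteine (-0.81, 5.96e-06). Polyamine and methionine salvage had 3 of 14 higher and 5 lower, with Paox, an acetylpolyamine oxidase, at -1.17 (adjusted p = 2.85e-08) and Smox, spermine oxidase, at 1.07 (0.000193). Other SAM-dependent methyltransferases had 1 of 14 higher and 4 lower, among them Inmt (-1.15, adjusted p = 0.000257) and Gamt, which makes creatine (-1.04, 2.29e-05). The choline list had 3 of 12 higher and 3 lower, with Pcyt1b at 1.76 (0.00234) and Chka, choline kinase, at 1.01 (0.00637). The NAD list had 3 of 15 higher and 6 lower, with Acmsd at 1.35 (3.5e-05) and Haao, of the kynurenine route, at -1.26 (1.07e-05).

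At 10 months, uninvolved against vehicle, the cycle and betaine genes had 0 of 11 higher and 8 lower (median -0.44, against 0.06 over all genes). Dmgdh was at 357 ± 54 CPM in uninvolved (SD, n = 5) and 725 ± 113 CPM in vehicle livers (SD, n = 6) with no overlap (-1.09, edgeR adjusted p = 1.48e-06). In the folate list 2 of 17 were higher and 8 lower, with Mthfd1l (3.37, adjusted p = 1.51e-08) and Shmt1 (-1.25, 3.8e-07) free of overlap. The serine and ATF4 list had 5 of 11 higher and 1 lower, and Psat1 was among the former (1.49, adjusted p = 0.00657). Slc7a11 was also called higher, at 4.10 ± 2.61 CPM against 0.0138 ± 0.0215 CPM in vehicles, which had too few counts for a fold to be given. Lower members made up 9 of 14 in polyamine and methionine salvage, 8 of 14 among other methyltransferases, 8 of 12 in the choline list, 8 of 15 in the NAD list and 5 of 10 in the cysteine list. Among them were Paox (-1.19), Inmt (-0.79), Gamt (-0.68), Selenoi (-0.84), Naprt (-0.71), Cdo1 (-0.82) and Mpst (-0.62). Smox (0.89), Acmsd (1.41) and Pcyt1b were higher, and the edgeR adjusted p lay between 5.81e-07 and 0.00222 over these 10 genes. Pcyt1b had 0.864 ± 0.404 CPM in uninvolved against 0.0875 ± 0.0768 CPM in vehicle livers, too few counts for a fold to be given. The shares of lower list members stand beside 26.5% of all genes called lower in that comparison, and the lists were written with earlier results of these data known.

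By the shape of the 9 group means, each member was set beside 9559 genes, and likeness was the root-mean-square difference of centred mean log2 CPM. For Ahcy the closest were Hsd17b10 (0.09) and Dmac2 (0.09), for Gnmt Sdr42e1 (0.11) and Msrb1 (0.11), and for Bhmt Slc17a3 (0.16) and Alas2 (0.16). For Pemt they were Tpst1 (0.05) and Gstt1 (0.05), and for Cth Abcb4 (0.08) and Sqstm1 (0.10). Mat1a had Proser2 (0.05) and Yif1b (0.06), Mat2a Trub2 (0.04) and Ipo4 (0.06), and Cbs Tmem125 (0.06) and Actr5 (0.06), although these 3 members varied little, by 0.13 to 0.20 around their own mean. Nnmt (Slc3a1 0.18, Etfbkmt 0.19) and Mthfd2 (Tnfrsf12a 0.22, Anxa1 0.24) had the least close neighbours. Gene pairs that overlap a member's locus were Particl, Gm26904, Gm15622 and Gm45609 on the opposite strand of Mat2a, Gnmt, Bhmt and Ahcy, and Gm43314 and Gm43890 on the same strand as Cth and Mthfd2. The strand setting of the counting is not given in the sources used here, so reads of these loci may be shared.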

How the data were processed

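Total liver RNA (RNeasy, DNase) gave TruSeq stranded libraries, per the labels' protocols. The authors deposited raw-scale counts per gene, as whole numbers. Trim Galore, HISAT2, featureCounts and mm10 are named in the submitters' processing notes, and ComBat-seq batch adjustment by the authors is named in the table's title alone, with settings not given in the sources used here. Gene identifiers matched GENCODE M21 (55536 of 55536).

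Tests were edgeR 4.0.16 fits under R 4.3.3 (scaling by TMM, filterByExpr, robust quasi-likelihood, adjusted p under 0.05), per age, with batch as a term at 5 months, tumors with 1 other group, and vehicle ages within batch 1. CPM used TMM over all samples. Libraries of 3-week vehicle mouse 3 were summed, as were uninvolved 3 and 6, the latter decided with the data in view. The titles tie tumor and uninvolved tissue to shared mice by number. Over the 5 shared samples, deviations from the group mean correlated from -0.367 to 0.682, with 3 over 0.1. Only 2 tumors correlated best with the uninvolved sample of their number. The 3-week TBT and vehicle groups, which are different mice, had 4 of 7 over 0.1 and 4 best with their own number. The pairing therefore rests on the titles. The script was tested on simulated data.

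Named genes were all members, 2 called genes with the largest change per list in 2 comparisons, and the 2 most alike. One gene named by this rule is not reported here. The ratio used 0.5 added counts and permutation tests (100000 resamples, exact below 10 per group). Members and lists were chosen with earlier results of these data known. Alternatives were RLE, no filter, DESeq2 1.42.0, no batch term, single batches, other sums, blocks and left-out samples.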

Additional observations from a re-analysis of the deposited data

Results flagged for a closer look

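Single samples stood far from the rest of their group (by Dixon's test at 95%) in 18 of 88 groups of 4 to 10 samples tested over the members and the Mat2a to Mat1a ratio, where chance gives about 1 in 20. Tumor 7 accounted for 5 of these, with Mat1a at 7750 CPM, Gnmt at 1617, Bhmt at 6127, Ahcy at 1931 and the log2 ratio at -7.40. Uninvolved sample 7, from the same mouse, was high for Mat1a (5427 CPM) and Bhmt (4499). Vehicle 9 of 5 months, the shallowest library, was low for Mat2a (22.17 CPM), Gnmt (398.6), Ahcy (250.5) and Pemt (48.86). Low-risk 8 of 10 months was high for Mat1a (4440 CPM), Ahcy (1718) and Pemt (328.7). High-risk 1 of 5 months had Mat1a at 6322 CPM, 3-week vehicle 1 had Cth at 297.3, 3-week TBT 3 had Cth at 375.2, and the sum of uninvolved libraries 3 and 6 had Mthfd2 at 5.222 CPM.

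The 10-month vehicle library labelled tumor, which entered no comparison, had Mat2a at 68.21 CPM and Mthfd2 at 3.891 CPM, both above all 6 vehicles. Of the 10 members 7 lay below all vehicles in that library, which was also one of those that stood apart by mitochondrial counts.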

How the results depend on the processing

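Of 1250 member results under alternatives, 1175 kept their side of the threshold (47 of them uncalled values that changed sign), 31 calls were lost, 43 were gained and 1 reversed. Of 26 calls, 17 were lost under at least one alternative. The cause of these changes was not tested except where fewer samples or genes show it.

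Members called in high-risk against low-risk livers went from 6 to 1 within batch 1 (773 genes against 5745), and the ratio difference there was 0.309. In high-risk against vehicle, 3 members became 5 by DESeq2, 5 without the libraries that stood apart and 0 within batch 1, and all genes 1211 without a filter and 0 within batch 1. Samples of these groups share only a number, and that number as a replicate block gave 0 members and 0 genes, with Ahcy at 0.034 (adjusted p = 1). The replicate block gave 3 members and 3972 genes in tumors against vehicle. Mthfd2 was called in both fits, the block gained Cth (0.47, adjusted p = 0.0137) and Nnmt (0.76, 0.00733), and Mat2a, Gnmt, Bhmt, Ahcy and Pemt were no longer called (0.0519 to 0.148). It gave 1 member in 10- against 5-month vehicles. High-risk against low-risk and uninvolved against low-risk share fewer than 2 numbers, so no block could be fitted. Every sample correlated best with its own number in no comparison with 3 or more pairs.

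Genes called rose from 0 to 3 without a filter and 2 by DESeq2 at 3 weeks, to 52 by DESeq2, 20 without the batch term and 1 without the libraries that stood apart in low-risk against vehicle of 5 months, and to 1 by DESeq2 at 10 months. Members in uninvolved against low-risk liver were 3 with libraries 3 and 6 separate and 1 to 4 with single samples left out. With the vehicle library labelled tumor as a vehicle, 2 members and 6019 genes were called in uninvolved and 2 and 4206 in tumors against vehicle, and 0 and 671 between 10- and 5-month vehicles. In tumors against uninvolved liver, members were 1 by DESeq2, 2 in a fit of all 10-month groups (5346 genes), 1 with mouse as a block over 4 mice and 0 to 2 with single samples left out (1580 to 3948 genes), and the block over 6 mice gave 1920 genes.

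For 5-month against 3-week vehicles 2172 genes were called without a filter, and 7 members and 5757 genes without the libraries that stood apart. For 10- against 5-month vehicles the values were 0 members and 1128 genes without a filter, 6 and 3438 by DESeq2, and 7 and 3700 without those libraries. The contrast of the 10-month with the 5-month risk difference moved from 72 genes to 4 without a filter, 231 by DESeq2 and 122 with libraries 3 and 6 separate. It gave 208 without low-risk library 24 and 6 to 80 with single samples left out. Mthfd2, with few counts per sample, is the member most limited by depth. Over their alternatives the edgeR or DESeq2 adjusted p ran from 0.0165 to 0.954 for Mat1a in tumors and from 0.0152 to 0.519 in uninvolved liver against vehicle, from 0.0386 to 0.669 for Cbs in tumors against vehicle, from 0.0188 to 1 for Pemt and 0.0317 to 1 for Cbs in high-risk livers against vehicle, from 0.0248 to 0.509 for Bhmt in uninvolved against low-risk liver, and from 0.0115 to 0.143 for Mthfd2, 0.0217 to 0.256 for Mat2a and 0.0379 to 0.426 for Gnmt in tumors against uninvolved liver.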
